A study of Mus musculus with 6 samples.

Results

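The broad accessible regions of mouse skeletal stem and progenitor cells (SSPCs) are stretches of chromatin at least 1500 bp wide after peaks were merged over libraries. Each held a called peak in every library, which need not cover the full width. SSPCs were grown from tibial and femoral marrow of C57BL/6 mice, received no treatment and were profiled at passage one by ATAC-seq, which inserts adapters into open DNA with a transposase. The 3 young libraries came from mice of about 12 weeks and the 3 middle-aged libraries from mice of about 52 weeks. The marrow was plated in flasks and no sort is stated, so the cultures may hold other marrow cells. The peaks of the 6 libraries were merged where they overlapped by at least 1 bp, which gave 63840 regions. Of these, 22403 were called in all 6 lists, and 61 of the 22403 (0.272%) were at least 1500 bp wide. These 61 broad regions were thus chosen by measured peak positions, so their width and their presence in every library describe the choice and are not findings. All 61 merged regions of this width were called in every list. The samples are called young 1 to 3 and middle-aged 1 to 3, and the labels do not tie each library to its own mouse. The p-values below therefore measure the spread between these libraries, which may be technical.

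Most accessible sites of a mammalian cell are short gaps in the nucleosome array. The promoters of genes that are active in most cell types often lie in CpG islands, G+C-rich stretches that keep their CpG dinucleotides because they stay unmethylated. Such promoters can hold many transcription start sites (TSSs) on either strand, and open chromatin can run from the upstream flank into the first intron.

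The base composition of the broad regions is shown by 150 bases at or near the highest summit of 8 of them, taken from GRCm38 (mm10) on the forward strand and chosen to lie outside annotated exons. CpG dinucleotides are in capitals. The first 6 lie at promoters and the last 2 are the broad regions with the fewest CpGs for their base composition.
Rest, chr5:77265336-77265485: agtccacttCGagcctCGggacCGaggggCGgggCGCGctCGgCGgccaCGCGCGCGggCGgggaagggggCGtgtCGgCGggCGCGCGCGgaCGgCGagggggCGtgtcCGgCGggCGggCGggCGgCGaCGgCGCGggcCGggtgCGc
Nrip1, chr16:76373058-76373207: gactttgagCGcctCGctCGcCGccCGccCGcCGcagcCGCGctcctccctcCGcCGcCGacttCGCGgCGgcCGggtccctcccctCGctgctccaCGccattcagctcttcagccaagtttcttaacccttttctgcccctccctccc
Tdrd3, chr14:87415864-87416013: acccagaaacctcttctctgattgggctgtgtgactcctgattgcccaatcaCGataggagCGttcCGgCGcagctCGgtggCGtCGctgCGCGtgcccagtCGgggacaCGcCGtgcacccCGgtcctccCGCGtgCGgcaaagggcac
Ypel5, chr17:72836303-72836452: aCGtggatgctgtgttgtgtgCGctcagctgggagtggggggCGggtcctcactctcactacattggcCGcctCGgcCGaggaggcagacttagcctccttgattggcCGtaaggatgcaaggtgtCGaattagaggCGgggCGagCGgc
Hnrnpul2/Ttc9c, chr19:8819798-8819947: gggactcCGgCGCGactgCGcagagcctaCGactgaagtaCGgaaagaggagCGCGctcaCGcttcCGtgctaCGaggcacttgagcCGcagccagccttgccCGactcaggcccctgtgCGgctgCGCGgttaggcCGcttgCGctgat
Ppp2r3d, chr9:124423704-124423853: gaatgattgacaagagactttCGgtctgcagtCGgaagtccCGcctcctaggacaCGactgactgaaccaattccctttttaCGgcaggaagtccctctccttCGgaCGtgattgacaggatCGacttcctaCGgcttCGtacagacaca
Sp110 intron, chr1:85592771-85592920: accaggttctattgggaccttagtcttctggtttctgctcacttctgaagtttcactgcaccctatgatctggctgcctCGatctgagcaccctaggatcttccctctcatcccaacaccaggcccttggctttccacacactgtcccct
Peg3 intron, chr7:6728646-6728795: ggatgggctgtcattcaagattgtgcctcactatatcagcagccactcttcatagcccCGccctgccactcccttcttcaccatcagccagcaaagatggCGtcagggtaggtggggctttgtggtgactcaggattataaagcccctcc

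These windows held 34 CpGs at Rest, 18 at Nrip1, 16 at Tdrd3, 11 at Ypel5, 18 at Hnrnpul2/Ttc9c and 10 at Ppp2r3d. The Sp110 window held 1 CpG and the Peg3 window held 2. The same contrast ran through the whole regions. The G+C content of the 61 broad regions had a median of 69.4%, against 54.2% over the 22342 other regions called in all 6 lists and 63.3% over the 10316 of those at a protein-coding TSS. The ratio of observed to expected CpG had a median of 0.884 in broad regions, 0.420 in the other shared regions and 0.786 in the other shared TSS regions. With the usual limits for a CpG island (at least 200 bp, G+C of at least 50% and a ratio of at least 0.6), 59 of 61 broad regions were island-like (96.7%), against 81.0% of the other shared TSS regions and 40.4% of all other shared regions. The 2 exceptions were the regions in Sp110, with a ratio of 0.230, and in Peg3, with 0.309. A longer region is also a longer stretch of sequence, and no test was made of these differences.

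**Figure D1:**
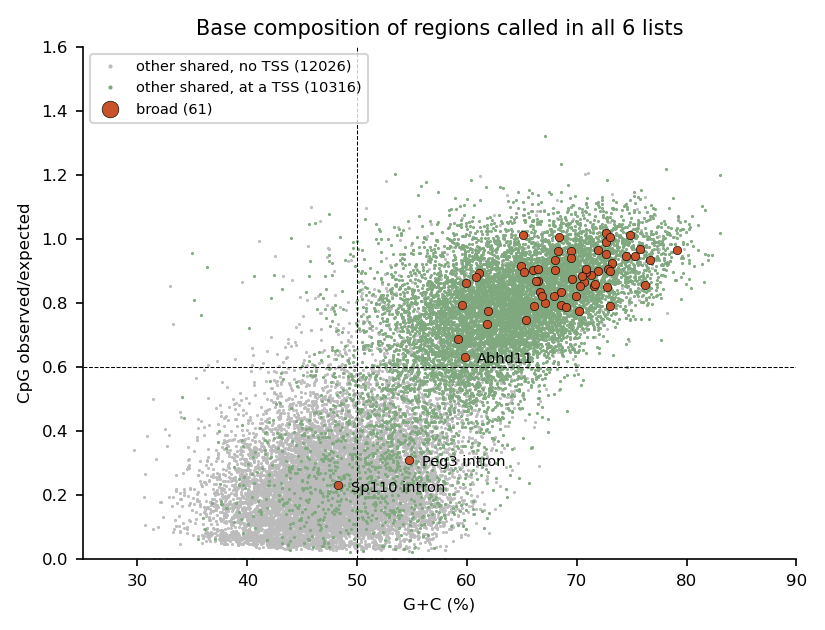
Each point is a region called in all 6 lists, with its G+C content in percent on the x axis and its observed over expected CpG on the y axis. The 61 broad regions (large points) sit in the upper right cloud of TSS regions, except those in Sp110 (0.230) and Peg3 (0.309), and dashed lines mark the island limits of 50% and 0.6.

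Short motifs were searched, by their exact letters, on both strands in a window of 300 bp on the highest summit. The GC box GGGCGG, which Sp1 binds, was found in 46 of 61 windows (75.4%), beside 72.7% of other shared TSS regions and 40.2% of other shared regions. The ETS core CCGGAA was found in 27.9%, beside 30.0% and 17.7%. The CCAAT box was found in 32.8%, beside 39.5% and 34.7%. The EBF-like CCCNNGGG was found in 27.9%, beside 19.6% and 14.2%. AP-1 TGANTCA, frequent at distal sites, was found in 2 windows (3.28%), beside 4.75% of other shared TSS regions and 16.0% of other shared regions. TEAD GGAATG was found in 9.84%, beside 9.56% and 13.4%, and RUNX TGTGGT in 11.5%, beside 10.95% and 22.1%. In 6 of these motifs the share of broad regions lay closer to that of other TSS regions than to that of other shared regions, the exception being the CCAAT box. No motif is contained in another, and a match describes the letters only.

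Broad regions were promoter regions in most cases. A protein-coding TSS lay within 1000 bp of 56 of the 61 (91.8%), and inside 55 of them. The share within 1000 bp was 46.2% over the other shared regions. The 56 regions held the TSSs of 65 protein-coding genes, 48 regions at 1 gene and 8 at more than 1. In 7 regions these genes lay on opposite strands: Rdh10/Rpl7, Hnrnpk/Rmi1, Hnrnpul2/Ttc9c, Zbtb1/Zbtb25, Ankib1/Krit1, Thap2/Zfc3h1 and Fiz1/Gm44973/Zfp524. Most broad regions at a TSS had a single protein-coding gene. Of these 56, 8 (14.3%) were at 2 or more, beside 12.1% of the other shared TSS regions. A TSS of a gene that is not protein-coding also lay inside 11 of the 56. Broad regions held a median of 2 distinct TSSs, the same as the other shared TSS regions, with a maximum of 15 at Hnrnpk/Rmi1. The highest summit lay a median of 114.5 bp from the nearest protein-coding TSS, and within 200 bp of it in 39 of the 56. Among 48 regions whose TSSs lay on 1 strand, a median of 620 bp reached upstream of the first TSS and 689 bp downstream of the last, and 25 reached further downstream. The broad regions therefore reached to both sides of the starts. All 19 autosomes had at least 1 broad region and the sex chromosomes had 0. On the sex chromosomes lay 456 of the 22342 other shared regions, and 288 of the 10316 at a protein-coding TSS. At so low a share, 0 of 61 does not set the broad regions apart.

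The widths clustered just above the limit. They ran from 1503 to 3544 bp with a median of 1597 bp, 51 of 61 were no wider than 1700 bp, and 4 reached 2000 bp. The median over all shared regions was 549 bp and the 99th percentile was 1307 bp. Just inside the limit lay Coro1c (1503 bp), Ptp4a1 (1507 bp), Lemd3 (1509 bp), 2610301B20Rik (1512 bp) and Hipk3 (1514 bp). Just outside lay Pank1 (1493 bp), Otud1 (1494 bp), Ctbp2/Fgfr2 (1495 bp), Ccnl1 (1498 bp) and a region near Zbtb20 (1498 bp). Membership near the limit thus rests on a few bases.

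The merged width of a broad region was in most cases assembled from several called peaks. A single peak of at least 1500 bp was called in some library in 26 of the 61, and in none in the other 35. At least 2 sub-peaks were called in some library in 56 regions, and in every library in 5 (Ppp2r3d, Fiz1/Gm44973/Zfp524, Tab2, Sfpq and Ppm1a). A single peak in each of the 6 libraries was found in 5 regions: the Sp110 intron, Ube2d3, Abhd11, Gsk3b and Ankib1/Krit1. Of 366 pairs of region and library, 211 (57.7%) had 2 or more peaks. The 250 gaps between sub-peaks had a median of 129.5 bp and ran from 52 to 609 bp, and 20 of them (8%) held a protein-coding TSS. Most gaps thus held no protein-coding start, and their distance from the starts was not measured.

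Broad regions shared a core. All 6 libraries covered 58.5% of the bases of the broad regions, and at least 5 covered 70.6%. The stretch covered by all 6 had a median of 895 bp per region, from 279 bp at Foxp4 to 3359 bp at the region on chromosome 17 described below. It was in 1 piece in 18 regions, 2 pieces in 32, 3 in 10 and 5 in 1. Covered length varied between libraries by a median of 477 bp per region, by as little as 86 bp in the Sp110 intron and as much as 1111 bp at Foxp4.

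**Figure D2:**
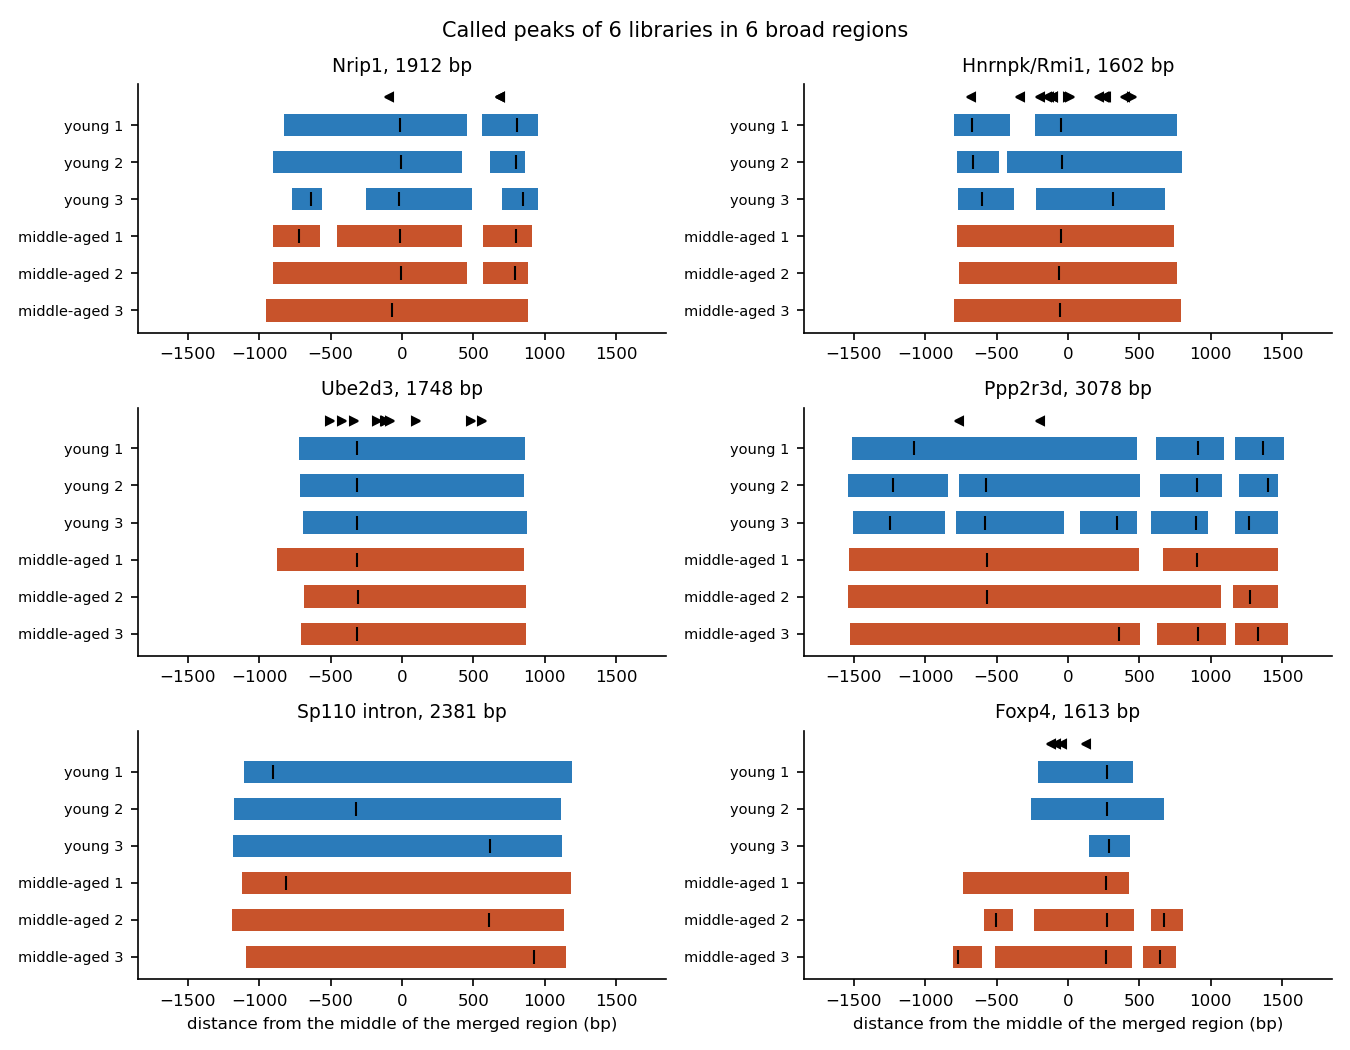
Called peaks (bars) with their summits (ticks) in 6 broad regions, 1 row per library, by distance in bp from the middle of the merged region, with triangles for protein-coding TSSs pointing in the direction of transcription. Ube2d3 and the Sp110 intron were 1 peak in every library, Ppp2r3d was 2 to 5 peaks, Hnrnpk/Rmi1 was 2 peaks in each young library and 1 in each middle-aged one, and Foxp4 was covered over 288 bp in young 3 and 1399 bp in middle-aged 3.

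The lists of the libraries held 27628 to 48344 peaks. The genome-wide background, which measures relative depth, was 1.65 to 3.75 extended reads per base, with young 3 the shallowest library and young 1 the deepest. Read totals are not known. Of 15 stromal and SSPC marker genes, TSS peaks were called for 12, 11 and 6 in young 1, 2 and 3, against 12, 13 and 12 in middle-aged 1, 2 and 3, and Lepr and Prrx1 had none in any list. Of 10 macrophage markers, 9 or 10 had one in every library. Of 6 endothelial markers, 2 to 5 had one. The cells are called SSPCs as labelled, although Lepr and Prrx1 lacked a TSS peak and most macrophage markers had one in all 6 libraries. None of the marker genes had a broad region, and the part of other cell types in the values below was not tested. In such bulk samples, fewer cells of a type and less signal per cell cannot be told apart.

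The first comparison by age was of covered length, the bases of a broad region under called peaks. Young 1, 2 and 3 covered a mean of 1333, 1413 and 1096 bp per region. Middle-aged 1, 2 and 3 covered 1415, 1452 and 1431 bp. Every middle-aged value was above every young one, young 2 only just, and young 3 was far below the rest. The young libraries averaged 1280 ± 165 bp and the middle-aged ones 1433 ± 18.6 bp (SD, n = 3 each), which differ by 153 bp or a ratio of 1.12. No test was made, because all 6 lists chose the regions. Young 3 had the lowest covered length in 47 of the 61 regions, and the difference was 59.4 bp when it was left out and the regions were found again. The other shared regions had a ratio of 1.11, close to that of the broad regions. When the regions were chosen from the 5 other lists and covered length was read in the library left out, the values were 1345, 1427 and 1100 bp in young libraries and 1395, 1428 and 1418 bp in middle-aged libraries, which overlap. The difference was then 123 bp.

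Region by region, covered length in every middle-aged library was above that in every young one in 9 of 61 broad regions (14.8%), beside 14.7% of all shared regions. The reverse held in 0 of 61, beside 0.795%. The share of broad regions was therefore near that of the background. The 9 were Galnt7, Clock, Nipbl, Zbtb1/Zbtb25, Ppp2r3d, Zfp800, Sp1, Rap1gds1 and Foxp4. At Nipbl, which loads cohesin onto DNA, covered length was 1060, 1067 and 809 bp in young libraries and 1109, 1391 and 1493 bp in middle-aged libraries. At Sp1 (chr15:102405259-102406906) it was 1531, 1512 and 1478 bp in young libraries and 1604, 1589 and 1648 bp in middle-aged libraries. Sp1 was called as 2 peaks in each young library and 1 in each middle-aged library.

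Sub-peaks differed little by age. The mean number of called peaks per broad region was 1.66, 1.67 and 1.85 in young 1, 2 and 3, against 1.70, 1.57 and 1.64 in middle-aged 1, 2 and 3. The groups overlapped, with a mean of 1.73 ± 0.109 peaks for young and 1.64 ± 0.0656 for middle-aged libraries (SD, n = 3 each). The shallowest library, young 3, had the highest mean. In the other shared regions every library had between 1.04 and 1.05 peaks per region.

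**Figure D3:**
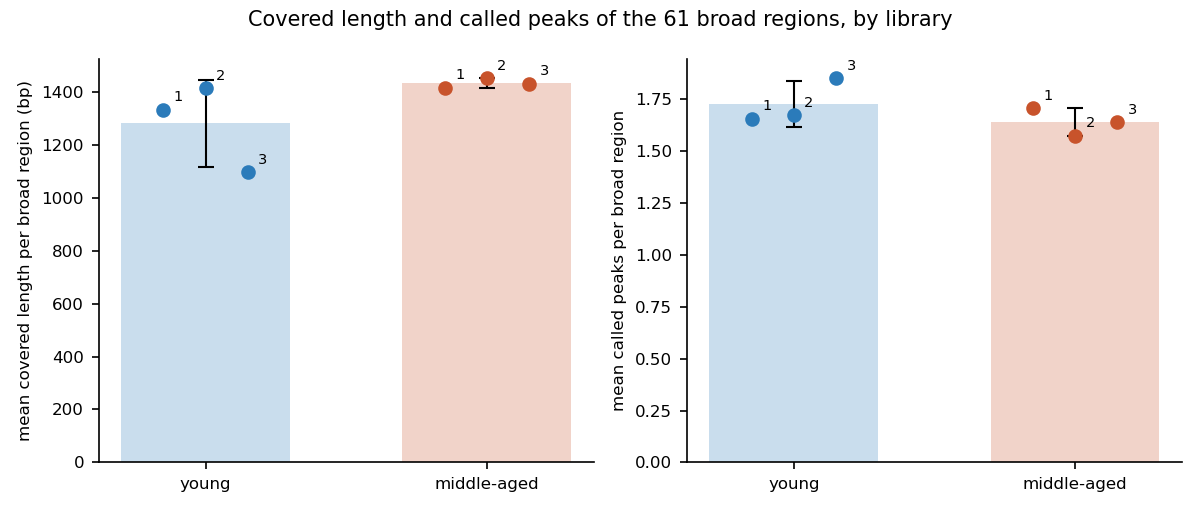
Mean covered length in bp (left) and mean number of called peaks (right) per broad region, 1 numbered point per library, with bars at the group mean and whiskers of 1 SD (n = 3). Young 3 is lowest in covered length (1096 bp) and highest in peaks (1.85), and the other 5 libraries lie between 1333 and 1452 bp.

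Summit height is the pileup of extended reads at the highest summit divided by the genome-wide background of its library, so a height of 40 is 40 times background. On this scale the mean over 6 libraries ran from 13.8 at Dnaaf2/Gm49383 to 234.7 at the chromosome 17 region, with a median of 36.1. Broad regions were tall: 59 of 61 were above the median of shared regions and 28 were in the top 10%. Across the 22403 shared regions, width and height had a Spearman correlation of 0.542, and across the 61 broad regions 0.0998, as a description of regions that share libraries. Across the 10372 shared TSS regions it was 0.417. Wider regions were thus taller in the whole list, so the height of the broad regions is not independent of their choice by width. The broad regions were cut at 1500 bp and 51 of 61 were no wider than 1700 bp. With so narrow a range of widths, their lower correlation cannot be compared with the others.

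For comparison between libraries, heights were put on a log2 scale and centred on the median of all shared regions in each library. The median broad region stood at 1.08, 1.17 and 1.09 in young 1, 2 and 3, against 1.24, 1.22 and 1.31 in middle-aged 1, 2 and 3. All 3 middle-aged values were above all 3 young ones. The means were 1.11 ± 0.05 (SD, n = 3) and 1.26 ± 0.05 (SD, n = 3), a difference of 0.14 with an exact permutation p of 0.1 (two-sided), the smallest this design can give. With quantile normalisation the difference was 0.02 (exact permutation p = 0.7). Other shared TSS regions stood at 0.49 ± 0.07 in young libraries and 0.61 ± 0.01 in middle-aged ones (SD, n = 3 each). The height of broad regions above other TSS regions was 0.57, 0.63 and 0.67 in young libraries and 0.63, 0.62 and 0.69 in middle-aged libraries. These overlap, and the difference of 0.02 had an exact permutation p of 0.5 (two-sided). With peaks of −log10 q of at least 5 alone it was 0.08 (exact permutation p = 0.1). With the deposited fold enrichment, which divides by the local background around the peak, the difference in height of the broad regions turned to -0.09, and that above other TSS regions to -0.13, on the same log2 scale. The local background at broad regions was a median of 3.41 times the genome-wide one, beside 1.87 times at other shared TSS regions. The direction by age thus depends on the background used, and the part of the local background in the result was not tested.

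**Figure D4:**
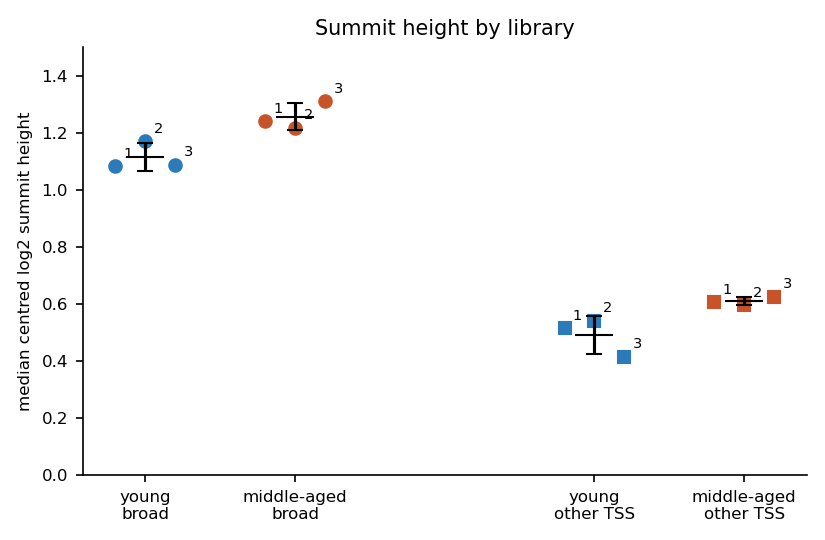
Median centred log2 summit height per library (numbered points), for the 61 broad regions and the 10316 other shared TSS regions, with the group mean and whiskers of 1 SD (n = 3). Middle-aged values lie above young ones in both sets, 1.26 against 1.11 and 0.61 against 0.49.

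One by one, 0 of 61 broad regions passed an adjusted p of 0.05 in limma, higher or lower. Over all shared regions 1 was called higher (0.00446%) and the share called lower was 0% (0 of 22403). Without centring 11 broad regions were called higher, beside 2395 of all shared regions, whose median change was then 0.39. With the mean over sub-peaks 1 broad region was called higher, beside 7 higher and 1 lower of all shared regions. With library weights 1 was called lower, beside 13 higher and 17 lower. At an unadjusted p under 0.05, 11 broad regions were higher (18.03%) and 2 lower (3.28%), beside 7.59% and 4.56% of all shared regions and 13.8% and 1.27% of other TSS regions. The groups did not overlap in 9 regions that were higher in middle-aged libraries (14.8%, beside 10.2% of all shared regions and 17.6% of other TSS regions). They did not overlap in 3 that were lower (4.92%, beside 6.55% and 2.42%). The median log2 change was 0.15, beside 0.12 over other TSS regions and 0.03 over all shared regions, and 52 of 61 changes were positive (85.2%, beside 73.8% and 54.8%). With the deposited fold enrichment 16 of 61 were positive, and with quantile normalisation 36 of 61 were, with a median of 0.03. The sign of many single changes thus rests on the background and the scaling.

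**Figure D5:**
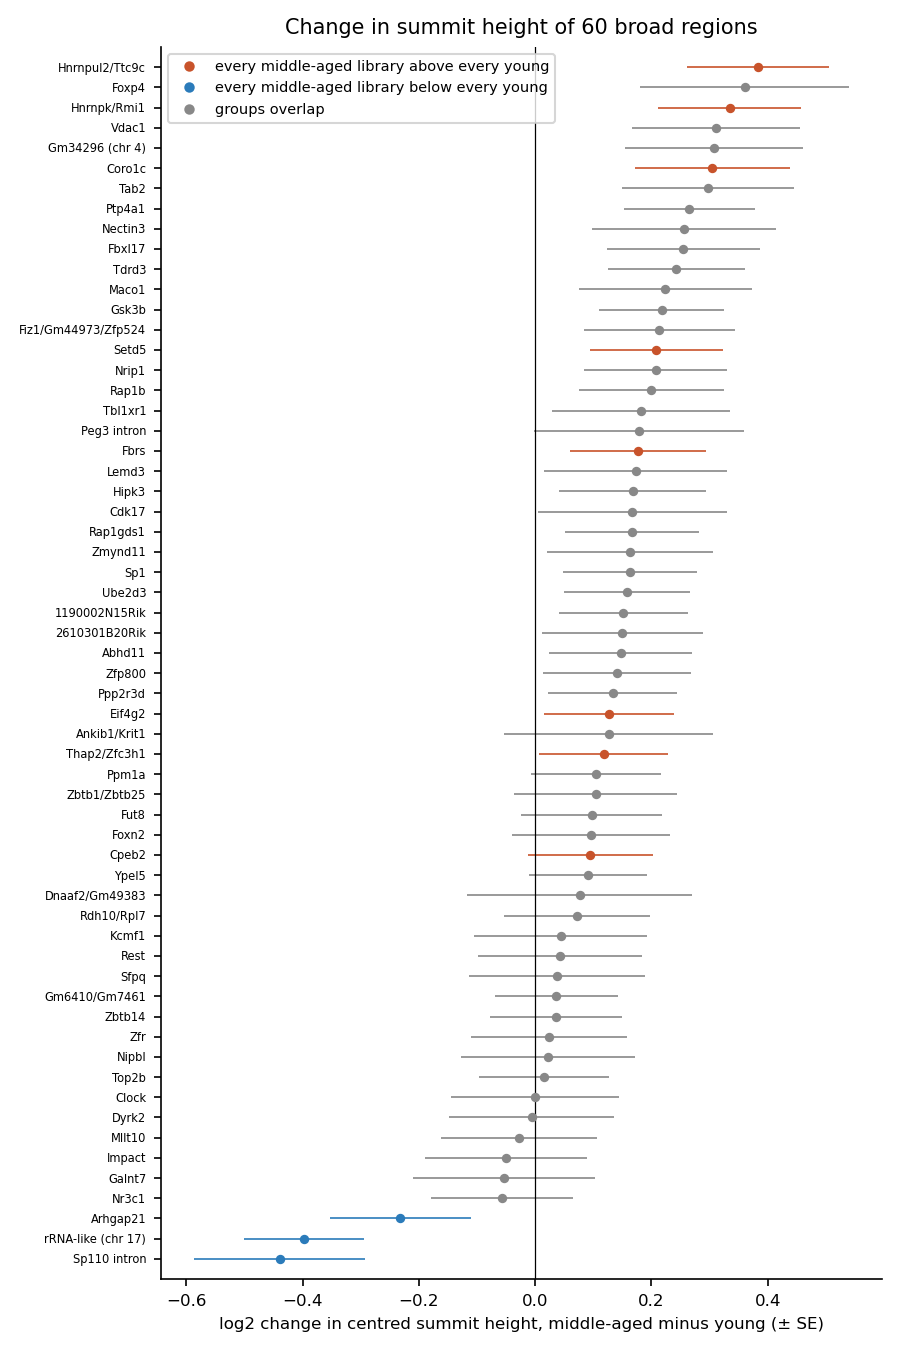
Log2 change in centred summit height, middle-aged minus young, with its limma standard error for 60 of the 61 broad regions. Changes run from -0.44 at the Sp110 intron to 0.38 at Hnrnpul2/Ttc9c, and colours mark the 8 plotted regions in which every middle-aged library was above every young one and the 3 in which every one was below.

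Genes that regulate transcription and chromatin numbered 21, at 19 broad regions of 1525 to 2004 bp. This grouping, like those that follow, was made from the gene names after the regions were known, and orders the description only. Nr3c1, the glucocorticoid receptor (chr18:39489186-39491189, 2004 bp), was the widest at a coding TSS apart from Ppp2r3d. It held 4 TSSs and covered 1365, 1739 and 1262 bp in young libraries and 1630, 1608 and 1477 bp in middle-aged libraries, so the groups overlapped. Its centred log2 height was 1.38, 1.39 and 1.37 in young libraries and 1.24, 1.32 and 1.40 in middle-aged libraries, a change of -0.06 (SE 0.12, limma adjusted p = 0.889). Nrip1, a corepressor of nuclear receptors (chr16:76372186-76374097, 1912 bp), had heights of 36.0, 56.9 and 35.8 times background in young libraries and 63.8, 67.4 and 55.1 in middle-aged libraries. After centring these became 1.68, 1.87 and 1.30 against 1.88, 1.91 and 1.68 on the log2 scale, which overlap, with a change of 0.21 (SE 0.12, adjusted p = 0.506). The Nrip1 region was 3 peaks in young 3 and middle-aged 1, and 1 peak in middle-aged 3.

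Setd5, a SET-domain protein (chr6:113075994-113077685, 1692 bp), stood at 1.63, 1.79 and 1.605 in young libraries and 1.83, 1.88 and 1.95 in middle-aged libraries on the centred log2 scale, without overlap, a change of 0.21 (SE 0.11, adjusted p = 0.457 in limma). Gt(ROSA)26Sor, the widely used transgene locus, is annotated in the same region. Foxp4, a forkhead factor, had the smallest core of all (279 bp) and a change of 0.36 (SE 0.18, adjusted p = 0.410) with overlapping groups. The Foxp4 sequence also aligned over 1607 bp to a scaffold outside the chromosomes at 100% identity. Rest, a repressor of neuronal genes, Clock, a core circadian factor, and Top2b, a DNA topoisomerase, had changes of 0.04, 0.00 and 0.02. Across the 19 regions the changes ran from -0.06 to 0.36 with a median of 0.14, and 16 were positive, beside 4 with the deposited fold enrichment. None passed the adjusted test.

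RNA-binding and translation factors made up 9 genes at 9 broad regions. Hnrnpul2/Ttc9c (chr19:8818948-8820562, 1615 bp) had the largest positive change of all 61. Hnrnpul2 is a ribonucleoprotein of the nucleus. Its height was 23.2, 40.6 and 37.0 times background in young libraries and 51.95, 57.9 and 54.1 in middle-aged libraries. Centred, these were 1.05, 1.39 and 1.35 against 1.58, 1.69 and 1.65, a change of 0.38 (SE 0.12, limma adjusted p = 0.205). Hnrnpk/Rmi1 (chr13:58401447-58403048, 1602 bp) stood at 1.24, 1.21 and 1.00 against 1.49, 1.46 and 1.502, a change of 0.33 (SE 0.12, adjusted p = 0.274). Hnrnpk binds cytosine-rich RNA. In both regions the groups did not overlap. Hnrnpk/Rmi1 was called as 2 peaks in each young library and 1 in each middle-aged one. With the mean over sub-peaks in place of the highest it passed limma (change 0.86, adjusted p = 0.00342), but that mean takes in a lower peak in the young libraries alone, so the value follows the splitting of peaks as well as their height. Cpeb2, Eif4g2 and Thap2/Zfc3h1 were also without overlap, with changes of 0.10, 0.13 and 0.12. Tdrd3, a tudor-domain protein (chr14:87415708-87417423, 1716 bp), was among the tallest, at 56.8, 82.0 and 51.0 times background in young libraries and 83.0, 104.1 and 95.6 in middle-aged libraries. After centring these became 2.34, 2.40 and 1.81 against 2.26, 2.54 and 2.48 on the log2 scale, which overlap. The change was 0.24 (SE 0.12, limma adjusted p = 0.397), and -0.06 with the deposited fold enrichment. Sfpq, a splicing and paraspeckle protein, was 2 peaks in every library and had a change of 0.04. All 9 changes of these regions were positive, from 0.02 to 0.38, as were 85.2% over all broad regions, but with the deposited fold enrichment 8 of the 9 were negative.

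Kinases, phosphatases and their partners were 8 genes at 8 regions. Ppp2r3d, a regulatory subunit of protein phosphatase 2A (chr9:124422808-124425885, 3078 bp), was the widest at a coding TSS and had the most sub-peaks, with 3, 4 and 5 in young 1, 2 and 3, against 2, 2 and 3 in the middle-aged libraries. Its young and middle-aged numbers meet at 3. It covered 2815, 2670 and 2495 bp in young libraries and 2832, 2922 and 2890 bp in middle-aged libraries, without overlap. Its sequence also aligned over 3049 bp to a patch scaffold of the assembly at 99.8% identity, and RefSeq gives other gene names there, so its placement is less certain than that of most. Gsk3b, a kinase that acts on beta-catenin and glycogen synthase (chr16:38088234-38089834, 1601 bp), was 1 peak in every library. Its centred log2 height was 2.21, 2.44 and 2.17 in young libraries and 2.52, 2.56 and 2.39 in middle-aged libraries, which overlap at young 2 and middle-aged 3. The change was 0.22 (SE 0.11, limma adjusted p = 0.405). Ptp4a1, a membrane-bound phosphatase, stood at 48.8, 82.3 and 54.6 times background in young libraries and 89.7, 96.6 and 92.4 in middle-aged libraries. Centring brought the groups to overlap, with 2.40 in young 2 and 2.37 in middle-aged 1, and the change was 0.27 (SE 0.11, adjusted p = 0.331). Tab2, an adaptor of the kinase TAK1, had a change of 0.30 (SE 0.15, adjusted p = 0.409 in limma) and Dyrk2 one of -0.01.

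Genes of ubiquitin transfer numbered 4, at 4 broad regions. Ube2d3, a ubiquitin-conjugating enzyme (chr3:135437778-135439525, 1748 bp), held 10 TSSs under 1 peak in each library. Its covered length was 1580, 1567 and 1570 bp in young libraries and 1728, 1552 and 1577 bp in middle-aged libraries, and the change of its log2 height was 0.16 (SE 0.11, adjusted p = 0.575 in limma). Fbxl17, an F-box protein, had a change of 0.25 and Kcmf1 one of 0.04. Small GTPases and their regulators were 4 genes at 4 regions, with Ankib1/Krit1 counted in both groups. Arhgap21 is a GTPase-activating protein (chr2:20968291-20969878, 1588 bp). After centring it was the 1 broad region at a coding TSS in which every middle-aged library was below every young one. It stood at 1.42, 1.56 and 1.66 in young libraries and 1.24, 1.41 and 1.30 in middle-aged libraries, with young 1 and middle-aged 2 almost equal. The change was -0.23 (SE 0.12, limma adjusted p = 0.434). Uncentred heights overlapped, at 29.9, 45.9 and 46.1 times background in young libraries and 40.9, 47.5 and 42.2 in middle-aged libraries. Without centring the change was 0.12. Rap1b, a small GTPase of integrin signalling, had a change of 0.20 and Rap1gds1 one of 0.17.

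Adhesion, glycosylation, cytoskeleton and metabolism genes were 6 at 6 regions. Coro1c, an actin-binding coronin (chr5:113907866-113909368, 1503 bp), stood at 0.91, 0.79 and 0.94 in young libraries and 1.16, 1.02 and 1.38 in middle-aged libraries. Its groups did not overlap, and the change was 0.30 (SE 0.13, limma adjusted p = 0.347). Vdac1, the mitochondrial outer membrane channel, had a change of 0.31 (SE 0.14, adjusted p = 0.376) with overlapping groups. Galnt7, a glycosyltransferase of O-linked glycosylation, had a change of -0.05, Nectin3, a cell adhesion protein, 0.26, and Fut8, the core fucosyltransferase, 0.10. Rdh10/Rpl7, a retinol dehydrogenase and a ribosomal protein on opposite strands (chr1:16104275-16106004, 1730 bp), had a change of 0.07. Outside these groups, Ypel5, of the yippee family (chr17:72836104-72837700, 1597 bp), was the tallest promoter at 72.5, 115.9 and 102.0 times background in young libraries and 127.1, 141.5 and 121.0 in middle-aged libraries. After centring its groups overlapped, with a change of 0.09 (SE 0.10, adjusted p = 0.755). The region at 1190002N15Rik (chr9:94537161-94539004, 1844 bp), named Dipk2a by RefSeq, had a change of 0.15. Impact, an imprinted gene, had a change of -0.05.

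No protein-coding TSS lay within 1000 bp of 5 broad regions. The widest and tallest of all 61 lay on chromosome 17 (chr17:39843141-39846684, 3544 bp). RefSeq annotates Rn18s-rs5, an 18S ribosomal RNA related sequence, there, and GENCODE the lincRNA gene Gm26917. Its covered length was 3412 to 3522 bp, and its height was 220.8, 247.7 and 243.4 times background in young libraries and 219.2, 204.4 and 272.8 in middle-aged libraries. Its local background was 84.3 times the genome-wide one, beside a median of 3.41 over the broad regions. Centred, it stood at 4.30, 3.99 and 4.06 in young libraries and 3.66, 3.51 and 3.99 in middle-aged libraries, with no overlap but young 2 and middle-aged 3 almost equal. The change was -0.40 (SE 0.10, limma adjusted p = 0.143). It passed limma without young 2 (adjusted p = 0.0198), where 25 of all shared regions were called higher and 24 lower. It also passed with library weights (limma adjusted p = 0.0346), where 13 were called higher and 17 lower. Ribosomal RNA genes are repeated in the genome, and reads of other copies placed here cannot be told apart in these lists.

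The second was an intron of Sp110, a nuclear body protein (chr1:85591041-85593421, 2381 bp), 5396 bp from the nearest TSS. It was 1 peak in every library, covered over 2300, 2293 and 2308 bp in young libraries and 2303, 2324 and 2238 bp in middle-aged libraries. Its summit lay at different places in different libraries, as the map of peaks shows, and its height was only 20.8 to 26.1 times background. Its sequence aligned over at least 2337 bp to 6 places on scaffolds outside the chromosomes at 73.5% to 81.6% identity. The centred log2 height was 0.91, 0.69 and 0.84 in young libraries and 0.45, 0.22 and 0.46 in middle-aged libraries, without overlap, a change of -0.44 (SE 0.15, limma adjusted p = 0.220). After centring, the Sp110 and chromosome 17 regions were thus below in middle-aged libraries where 52 of 61 changes were positive. Neither passed the adjusted test in the main fit. Without centring their changes were -0.08 and -0.04 (limma adjusted p = 0.779 and 0.902), and their heights overlapped between the groups. The lower values thus rest on the centring.

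The third lay in an intron of Peg3, an imprinted gene expressed from the paternal copy (chr7:6727373-6729009, 1637 bp), 1412 bp from the nearest TSS. It was among the lowest, at 10.9, 14.1 and 12.1 times background in young libraries and 16.1, 18.3 and 19.3 in middle-aged libraries, and centred values overlapped (change 0.18, SE 0.18). The others lay at Gm6410 and Gm7461 (chr8:4677253-4678820, 1568 bp, 90.9 times background on average) and at Gm34296 (chr4:133813121-133814669, 1549 bp). Their changes were 0.04 and 0.31, and neither passed (limma adjusted p = 0.924 and 0.409).

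None of the genes in short lists for Notch and other pathways was at a broad region. Of 236 annotated genes in 11 lists (Notch, stromal identity, TGF-beta and BMP, AP-1, NF-kB, heat shock, matrix, macrophage, endothelial, housekeeping and chromatin genes), 176 had a TSS region called in all 6 lists and 0 of these were broad. Over all protein-coding genes 65 of 10546 with such a region were broad (0.616%), the share against which the 0 of 176 is to be read. At so low a share, 0 of 176 does not set the listed genes apart. The lists do not hold every gene of a role, and the broad transcription and chromatin genes described above are not in them. The widest were Dnaja1, a heat shock cochaperone (1456 bp), Nfkb1 (1454 bp), Ezh2, a histone methyltransferase (1451 bp), and Vim, vimentin (1400 bp). In the Notch list of 20 genes the widest was Notch2 (1044 bp), and in the stromal list Zfhx3 (1201 bp).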

How the data were processed

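ATAC-seq libraries of 3 young and 3 middle-aged SSPC cultures were analysed from 1 deposited peak list per library; the reads were not used. According to the study's methods alignment was by Bowtie2, filtering by Sambamba and peak calling by MACS, and the submitters' processing notes name bcl2fastq and mm10. Peaks were called per library. The deposited columns hold peak and summit positions, a score (10 times the −log10 q as a whole number), the ratio of summit pileup to local background (fold enrichment), and −log10 p and q values at the summit. The lists hold no reads or counts, so the differential test of the authors (DiffBind) was not repeated.

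Summit pileup and background were solved from the deposited fold enrichment and −log10 p. The recovered pileups were whole within a tolerance of 0.05 in 99.99% or more of peaks, and the lowest background of a list was taken as its genome-wide background. Depth is known only as that background. Heights were put on a log2 scale with no pseudocount, since no called summit is 0, and centred on the median of the 22403 shared regions. Group means of the per-library medians were compared by an exact permutation test over 20 assignments of libraries (two-sided). Single regions were compared by limma 3.58.1 in R 4.3.3 with a variance trend, after tests on simulated data. Benjamini-Hochberg adjustment was made over all shared regions. Sequence and copies came from GRCm38 with pysam 0.24.0 and minimap2 2.31; other steps used Python 3.11.15, numpy 2.4.6, pandas 2.3.3 and scipy 1.17.1. A copy is an alignment elsewhere over at least 50% of a region at 90% identity or more.

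Named regions were the 10 widest, the 5 with the most sub-peaks, the 5 tallest, the 5 without a coding TSS, the 5 nearest the limit on each side and the 5 of smallest p in each direction. The values of 1 of these regions are not reported here. Other genes were named for their role after their values were seen. The broad regions, gene lists and tests were chosen with earlier results of these data known. Alternatives were other widths, q limits, list lengths, height measures, scalings, fits and left-out libraries.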

Additional observations from a re-analysis of the deposited data

How the results depend on the processing

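Of 15 alternatives for covered length none moved the difference by more than the pooled SD of the groups. The replicate block, 1 of them, could not move it. That SD is mostly the spread of the young libraries (165 bp, beside 18.6 bp in middle-aged ones), so the limit is loose. Leaving out 1 library gave 59.4 bp (without young 3) to 214.6 bp (without young 2). The number of broad regions was 1528 at a minimum of 1000 bp, 4 at 2000 bp and 26 with a single peak of 1500 bp, and 49 to 59 without 1 library. The TSS share was 50% at 2000 bp and 80.8% with a single peak, and 90% to 92.0% without 1 library. Sub-peaks differed by -0.5 at 2000 bp, -0.321 with a single peak, -0.235 with the same number of best peaks from each list, and -0.183 to -0.0395 without 1 library. The difference in height reversed with fold enrichment (-0.0865), was 0.02 with quantile normalisation (exact permutation p = 0.7), 0.04 at 2000 bp (p = 0.4) and 0.50 without centring, where the median of all regions moved by 0.39, and was 0.17 to 0.19 without 1 library. The difference above other TSS regions reversed with fold enrichment (-0.125), quantile normalisation (-0.0355) and a minimum of 2000 bp (-0.0799), was 0.08 at a −log10 q of at least 5 (exact permutation p = 0.1), and was 0.03 to 0.06 without 1 library, with p = 0.1 without young 1 or middle-aged 1. The limma calls were 11 without centring, 1 with the mean over sub-peaks, 1 with library weights and 0 to 1 without 1 library. The call with a library left out came without young 2, beside 25 higher and 24 lower of all shared regions. The cause of these changes was not tested.

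The replicate numbers only name the libraries, as same-numbered deviations correlated at 0.00056, 0.032 and -0.0035. With the number as a block, limma called 1 broad region, the one on chromosome 17, and 41 higher and 33 lower of all shared regions. The block cannot change a difference of group means in this balanced design. The differences therefore stayed at 153 bp for covered length, 0.14 for height and 0.02 for height above other TSS regions. The exact sign permutation p was 0.25 for height, the smallest possible, and 0.5 for height above other TSS regions.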
